A study of Homo sapiens with 2 samples.

Results

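The Kruppel-like factor (KLF) genes KLF2, KLF3, KLF4, KLF5, KLF6, KLF7, KLF9, KLF10, KLF12 and KLF13 were examined in a map of RUNX1 binding made by chromatin immunoprecipitation and sequencing (ChIPseq). All 10 genes were found among the 20033 protein-coding genes of the RefSeq table for GRCh38.p14, the build family (hg38) in which the peaks were placed. Peaks were counted for a gene if the summit, the base with the most tags, fell in its RefSeq interval or no more than 50 kb from either end. This gave 17 of the 13591 peaks in the list. They belonged to 7 genes, and KLF4, KLF5 and KLF7 had 0.

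The cells were MCF10A, an immortalised human breast epithelial line that does not form tumors. Their own RUNX1 gene had been deleted, and lentiviruses had added a RUNX1 gene that doxycycline switches on. Doxycycline was given at 1 µg/ml for 24 hours. The same cells gave 1 library from the RUNX1 immunoprecipitate (80338845 tags kept) and 1 library of input DNA (87410774 tags kept). RUNX1 was therefore measured at an induced and not at its natural level. With 1 library of each kind there was no replicate, no test between samples, and every interval given here covers counting error only.

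KLF proteins are transcription factors that hold DNA with zinc fingers at their carboxyl end, and they read GC-rich letters, the GC box and the CACCC or GT box. The rest of each protein differs and decides which cofactor it recruits. KLF2, KLF4, KLF5, KLF6 and KLF7 are known to work with the acetyltransferases CREBBP and EP300. KLF3 and KLF12 carry a motif that binds the corepressor CTBP, and KLF9, KLF10 and KLF13 bind the corepressor SIN3A. In epithelia, KLF5 is known for keeping basal cells dividing and KLF4 for driving them to stop dividing and differentiate. RUNX1 binds the letters TGTGGT or TGCGGT, strongest when it is paired with CBFB.

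RefSeq starts and the 300 bases around each (250 before, 50 after) were matched for 8 of the members, with 15 starts in all. None of the 17 summits lay in one of these stretches. Of the 15 starts, 0 had a summit within 1 kb, beside 3.87% of all starts in the table. The RUNX letters TGTGGT or TGCGGT, read on both strands, were in 3 of the 15 stretches, compared with 19.6% of all 35116 promoters in the table. They belonged to KLF5, KLF7 and KLF12. The 30 bases around each match are shown because they are the only RUNX letters in these 15 stretches. No start was matched for KLF3 or KLF10. The match is in capitals and the strand is that of the gene. The KLF12 match begins at base 19 of the transcript from the gene's first start, counting the start as base 1, the KLF5 match 174 bases before its second start, and the KLF7 match 72 bases before the start it lies at. A match in letters is not evidence of binding.
KLF12 (chr13:74306010-74306039, minus strand): cagcaccgactaTGTGGTcaccgggtatca
KLF5 (chr13:73058819-73058848, plus strand): gcccgagaggggTGCGGTcgggccgacgga
KLF7 (chr2:207167301-207167330, minus strand): ggggaagcttaaACCACActaaccatttaa

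The 250 bases before the start are shown for KLF2, KLF9 and KLF13. KLF2 had the tallest of the 17 peaks, KLF9 the peak closest to a gene's first start, and KLF13 the most summits inside the gene for its length. Capitals mark the letters that KLF proteins themselves read, the GC box GGGCGG and the GT box GGGTGG, on either strand. GC and GT boxes can overlap, as they do in KLF13. The upstream bases shown hold 4 GC boxes in KLF2 and 3 in KLF13, which also has 1 GT box, whereas KLF9 has 0 of either. Over the whole 300 bases the GC content was 80.7% for KLF2, 78.3% for KLF13 and 32.7% for KLF9, beside a median of 58.7% over all promoters. A GC box was in 7 of the 15 stretches and in 45% of all promoters, and a GT box in 4 and in 34.3%.
KLF2 (chr19:16324576-16324825, plus strand): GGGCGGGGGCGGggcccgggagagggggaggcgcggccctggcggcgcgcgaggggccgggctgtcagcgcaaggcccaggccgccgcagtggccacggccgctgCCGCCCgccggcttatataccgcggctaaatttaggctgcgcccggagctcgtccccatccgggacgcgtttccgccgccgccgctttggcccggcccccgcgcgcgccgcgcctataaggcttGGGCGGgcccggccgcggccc
KLF9 (chr9:70414658-70414907, minus strand): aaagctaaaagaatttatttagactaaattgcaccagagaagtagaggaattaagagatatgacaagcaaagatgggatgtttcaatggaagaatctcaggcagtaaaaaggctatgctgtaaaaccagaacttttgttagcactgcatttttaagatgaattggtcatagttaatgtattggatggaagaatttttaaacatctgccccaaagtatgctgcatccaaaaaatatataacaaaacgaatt
KLF13 (chr15:31326585-31326834, plus strand): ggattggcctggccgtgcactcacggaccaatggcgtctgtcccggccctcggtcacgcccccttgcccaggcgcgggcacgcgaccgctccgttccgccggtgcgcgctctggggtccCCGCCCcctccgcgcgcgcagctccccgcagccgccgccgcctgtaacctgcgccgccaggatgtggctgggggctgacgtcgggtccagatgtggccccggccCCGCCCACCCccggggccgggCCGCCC

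At least 1 peak within 50 kb was found for 7 of the 10 genes, or 70% (95% Wilson interval 39.7 to 89.2%). By the same rule 52.1% of all protein-coding genes had one, a share inside that interval. Longer genes catch more summits, so the genes were also set beside genes of like length. Among the 4 members under 10 kb long, 3 had a peak (KLF2, KLF6 and KLF10, not KLF4), beside 44.2% of all genes in that class. Of the 3 members of 10 to 50 kb, KLF3 and KLF9 had one and KLF5 did not, beside 50.3%. Of those of 50 to 200 kb, KLF13 had peaks and KLF7 did not, beside 58.5%. KLF12, at 620 kb, had peaks, as did 71.7% of genes of 200 kb or longer.

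The windows of the 10 genes covered 1.94 Mb, and their 17 peaks came to 8.75 per Mb (exact 95% Poisson interval 5.10 to 14.0). Over the windows of all protein-coding genes, counted gene by gene, the density was 6.49 per Mb, inside that interval. Summits lay inside the gene itself for 2 members, KLF12 and KLF13, beside 18.7% of all protein-coding genes. Within 5 kb of the gene the count stayed at these 2 members, beside 24.8%. The map of summits shows that 10 of the 17 peaks lie in the bodies of KLF12 and KLF13 and that the 7 others lie beyond a gene's end. Those 10 are 58.8% of the 17 (95% Wilson interval 36 to 78.4%). Of all peaks in the list, 47.3% lay inside a protein-coding gene, a share within that interval.

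**Figure D1:**
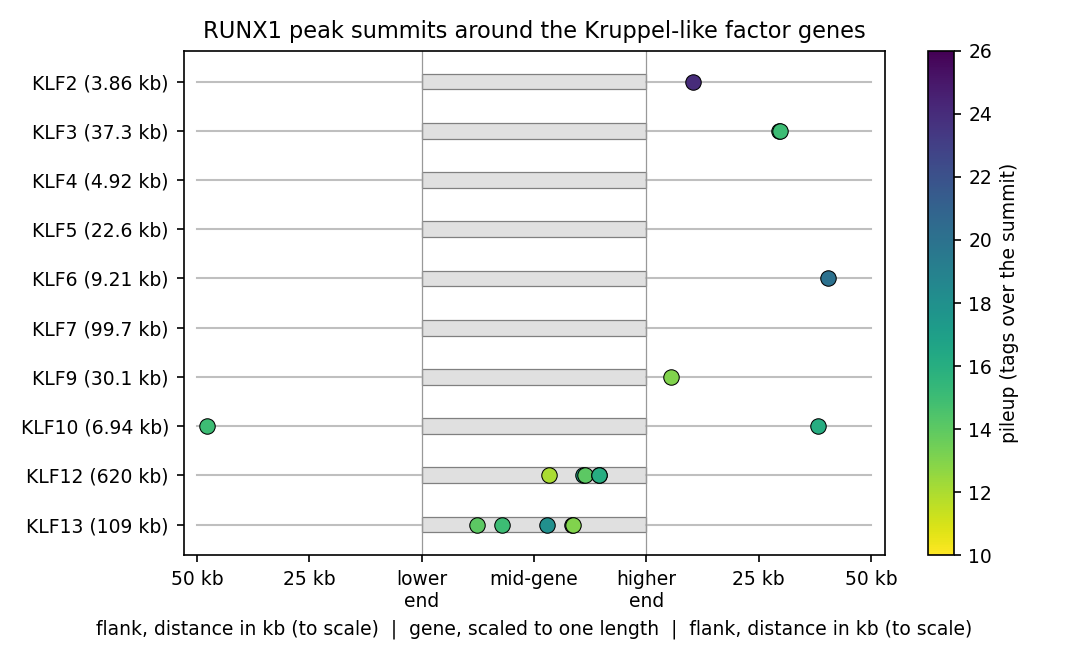
RUNX1 summits around each member, with the gene interval (grey box) drawn at one length for all genes and the 50 kb flanks to scale in kb, from lower to higher coordinates. Colour gives the pileup in tags, and peaks closer than about 1 kb overlap, as at KLF3, KLF12 and KLF13; KLF4, KLF5 and KLF7 have no point, and 6 of the 7 peaks outside a gene lie on the side of higher coordinates.

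KLF12, a repressor first known for holding down the gene of AP-2 alpha, had 5 peaks, all inside the gene (chromosome 13, 73686089 to 74306045, minus strand). In the direction of transcription they lay 131, 131, 170, 176 and 269 kb after the first start, within a stretch of 138 kb. Their pileups, which count the extended ChIP tags that cover the summit, were 16, 21, 14, 17 and 12 tags in that order. The tallest spanned 74174849 to 74174956 and had 21 tags (13 to 32.1, exact 95% Poisson interval), a fold enrichment over input of 5.86 and a −log10 q of 8.53. Its neighbour of 16 tags had its summit 175 bp away. The peaks of 14 and 17 tags stood on either side of a pair of inner starts, 1.85 kb before the start at 74134404 and 3.8 kb after the start at 74133929. These were the only summits within 5 kb of a start among the 15 peaks of members other than KLF10, or 13.3% (95% Wilson interval 3.74 to 37.9%). Of the 12916 peaks on chromosomes with matched starts, 18.9% were that near, a share within that interval. The weakest peak, of 12 tags (6.20 to 21.0), lay 9.69 kb before the innermost start and had a −log10 q of 1.96. The gene held no peak from its first start to 21.1% of its length, nor from 43.5% to its end.

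The 5 summits gave KLF12 a density of 8.07 per Mb of gene. In genes of 200 kb or longer the median was 2.91 per Mb, 19% were denser than KLF12, and 8.15% had 5 or more summits inside. These shares count each peak of a close pair. Merging peaks within 1 kb left 4 at KLF12, as did a q limit of 0.01, and a fold enrichment of at least 5 left 3.

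KLF13, a factor known from T lymphocytes, where it raises the chemokine gene CCL5, also had 5 peaks inside the gene (chromosome 15, 31326835 to 31435665, plus strand). They lay 26.8, 39.1, 60.7, 72.7 and 73.2 kb after the start, with pileups of 14, 15, 18, 22 and 13 tags. The tallest, of 22 tags (13.8 to 33.3), spanned 31399500 to 31399595, where the long non-coding RNA gene LOC105370939 overlaps KLF13. Its fold enrichment was 4.92, over an input level of 1.67 times the genome background. The peak of 18 tags (10.7 to 28.4) had the highest fold enrichment of the 5, 5.93. Its input level was the genome background, the lowest level in the list.

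KLF13 is 109 kb long, so its density was 45.9 summits per Mb of gene. In genes of 50 to 200 kb the median was 0, 1.77% were denser, and 1.19% had 5 or more summits inside. Here too each peak of a close pair is counted. Merging peaks within 1 kb left 4 at KLF13, and a fold enrichment of at least 5 left 1, so its count of 5 depends on these settings. The plot along both genes shows the KLF13 peaks from 24.6 to 67.3% of the gene's length and the KLF12 peaks from 21.1 to 43.5%.

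**Figure D2:**
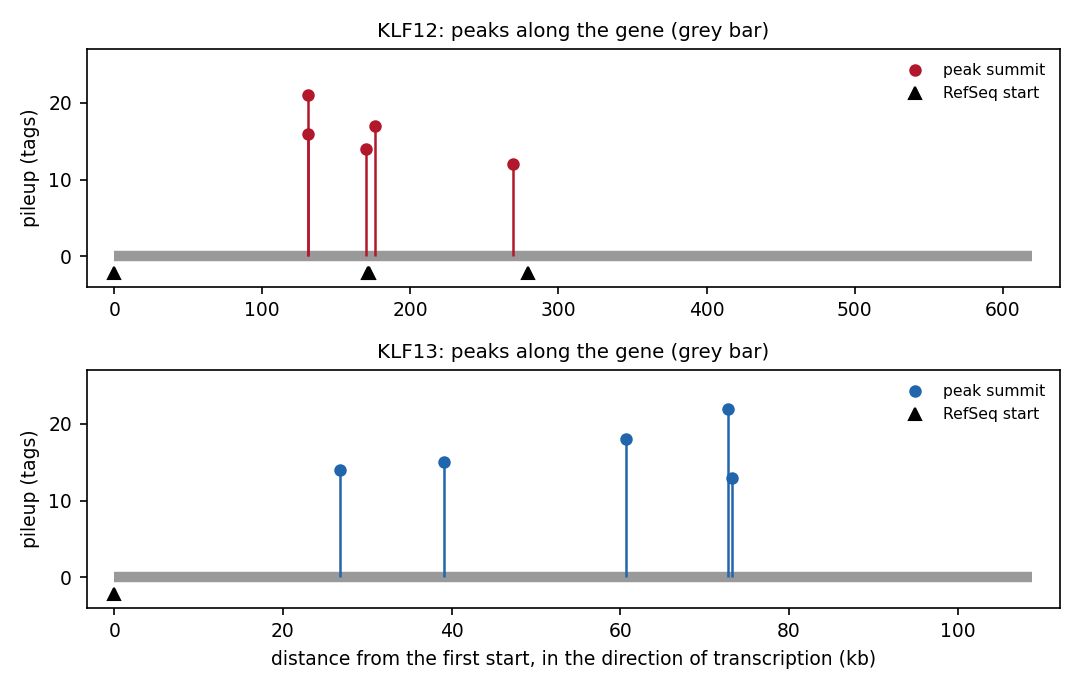
Peaks along KLF12 (top) and KLF13 (bottom): distance from the first RefSeq start in the direction of transcription (x axis, kb, a separate scale for each gene) against pileup (y axis, tags). The grey bar is the gene interval and triangles are RefSeq starts; the KLF12 peaks lie between 131 and 269 kb and reach 21 tags, and the KLF13 peaks lie between 26.8 and 73.2 kb and reach 22 tags.

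KLF3, the other member that binds CTBP and a repressor known in fat and blood cells, had 2 peaks and none in the gene (chromosome 4, 38664199 to 38701517). Both lay beyond its higher end, at 29.4 and 29.8 kb, with summits 338 bp apart and 15 tags each (8.40 to 24.7). The next protein-coding gene, TLR10, was 41.3 kb from the first of them. The first was 74 bp wide, the smallest width the peak caller allows, and stood on an input level of 1.67 times the genome background, with a fold enrichment of 3.42. The second had 4.15-fold over an input level of 1.30 times background.

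KLF9, known as a gene that glucocorticoid and thyroid hormone switch on, had 1 peak, 5.40 kb upstream of its start (chromosome 9, 70420009 to 70420131). The summit lay in KLF9-DT, a long non-coding RNA gene that begins beside KLF9. The peak had 13 tags (6.92 to 22.2), a fold enrichment of 2.99 and a −log10 q of 1.41. Of all peaks, 99.1% had a higher −log10 q, so this was one of the weakest in the list. Its input level was 1.67 times background, the value that 4 input tags over the summit give after scaling.

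KLF10, an early response gene of TGF-beta, had 2 peaks, one on each side of the gene (chromosome 8, 102648784 to 102655725). The nearer, 38.2 kb beyond the higher end, had 16 tags (9.15 to 26) and a fold enrichment of 4.29. The other, 47.7 kb below the lower end and the farthest of the 17, had 15 tags (8.40 to 24.7) and 3.83-fold enrichment, and it was closer to ODF1 (40 kb). The input level was 1.35 and 1.44 times background at these summits. When 250 kb on either side was taken, KLF10 had 17 peaks, and 0.454% of all protein-coding genes had as many. Every one of the 17 had an input level of at least 1.2 times background, with a median of 1.61, whereas the median of the whole list was 1.11. The part of the raised input in the number of peaks there was not tested.

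KLF2, known for keeping endothelial cells and T lymphocytes quiet, had 1 peak, the tallest and most enriched of the 17. It spanned 16338956 to 16339151 on chromosome 19, 10.3 kb downstream of the gene's end, and the next protein-coding gene, EPS15L1, was 16.2 kb from it. It had 24 tags (15.4 to 35.7), a fold enrichment of 7.55, a −log10 q of 12.8 and an input level of 1.05 times background. Of all peaks, 19.2% of all peaks were taller and 15.4% had a higher −log10 q.

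KLF6, a widely expressed early response gene that is often counted among tumor suppressors, had 1 peak, 40.3 kb upstream of its start (chromosome 10, 3825409 to 3825616). It had 20 tags (12.2 to 30.9), a fold enrichment of 6.56 and an input at the genome background. It was also the widest of the 17, at 208 bp. The next protein-coding gene was 505 kb away.

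No summit lay inside KLF4, KLF5 or KLF7 or in the 50 kb beside them. For KLF4 (chromosome 9, 107484852 to 107489769) the nearest summit was 136 kb downstream, with 15 tags, and was nearer to RAD23B (16.8 kb). Upstream of KLF4 the first summit was 377 kb away, with 18 tags. For KLF5 (chromosome 13, 73054976 to 73077538) the nearest summit was 147 kb downstream, with 16 tags, and the first upstream was 328 kb away, inside MZT1, with 18 tags. The 609 kb between KLF5 and KLF12 held 3 peaks, 147, 254 and 344 kb downstream of KLF5, with 16, 23 and 11 tags. Of all protein-coding genes, 75.2% had a nearer summit than KLF4 and 77.1% a nearer one than KLF5.

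KLF7, which is known for its part in the growth of neurons, lay just outside the rule (chromosome 2, 207074137 to 207173851, minus strand). A run of 4 peaks stood 65.5, 67.0, 67.6 and 69.9 kb upstream of the gene's higher end, with 21, 50, 15 and 19 tags. The second, at 207240691 to 207241092, had 50 tags (37.1 to 65.9), a fold enrichment of 10.9 and a −log10 q of 33.5, and 1.07% of all peaks were taller. It is taller than any of the 17 peaks inside the rule. Its counting interval does not overlap that of KLF2's peak of 24 tags, but the difference was not tested. The input level was 1.67 times background at this peak and 1.05 at KLF2's. KLF7 was the nearest protein-coding gene to all 4, but the summits lay in the long non-coding RNA genes MYOSLID-AS1 and, for the last 3, MYOSLID. The input level there was 1.17 to 1.67 times background. The other summits between 50 and 100 kb of a member were 1 at KLF13 (62.6 kb), 1 at KLF2 (88.5 kb, inside EPS15L1, 34 tags) and 3 at KLF10 (87.3 to 94.2 kb, 16, 42 and 17 tags).

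**Figure D3:**
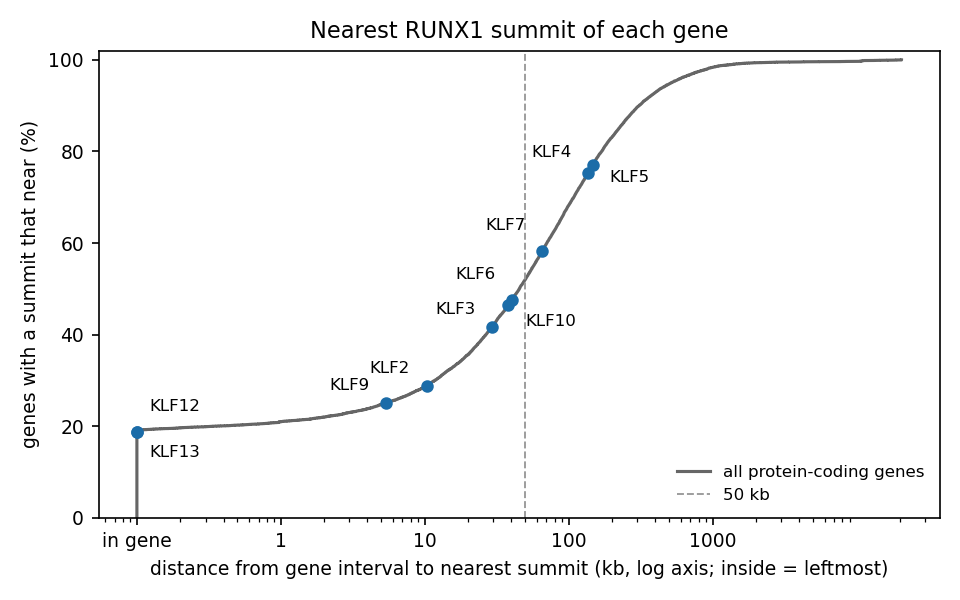
Distance from the gene interval to the nearest RUNX1 summit (x axis, kb, log axis, genes with a summit inside at the left edge) against the percentage of protein-coding genes with a summit that near (y axis). Points mark the members on the curve of all genes; KLF12 and KLF13 sit at the left edge, KLF7 at 65.5 kb is just past the dashed 50 kb line, and KLF4 and KLF5 at 136 and 147 kb are the farthest.

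By known cofactor, the 5 members that work with acetyltransferases had 2 peaks in all, at KLF2 and KLF6, and none inside a gene. The 2 members that bind CTBP had 7 peaks, 5 of them inside KLF12. The 3 members that bind SIN3A had 8, of which 5 were inside KLF13. KLF12 and KLF13, the longest of the 10 genes, held 10 of the 17 peaks, whereas KLF7, at 99.7 kb, had 0. KLF3, KLF9 and KLF10 had 2, 1 and 2. The parts of cofactor and gene length in these counts were not tested.

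Most of the 17 peaks were below the list's medians in height and width. Their pileups ran from 12 to 24 tags with a median of 15, whereas all peaks had a median of 18 (quartiles 15 and 23). Below the list's median were 12 of the 17, and 4 were above it, beside 6393 and 6234 of all 13591 peaks. The difference in height from the list was not tested. A pileup of 30 tags was reached by 9.88% of all peaks and by none of the 17, a count of 0 that allows a share of up to 17.6% when 3 counts are taken as its limit. The counting intervals of the 17 all hold the values from 15.4 to 21.0 tags. Overlap of intervals is not a test of a difference, and differences in height between the members' peaks were not tested.

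**Figure D4:**
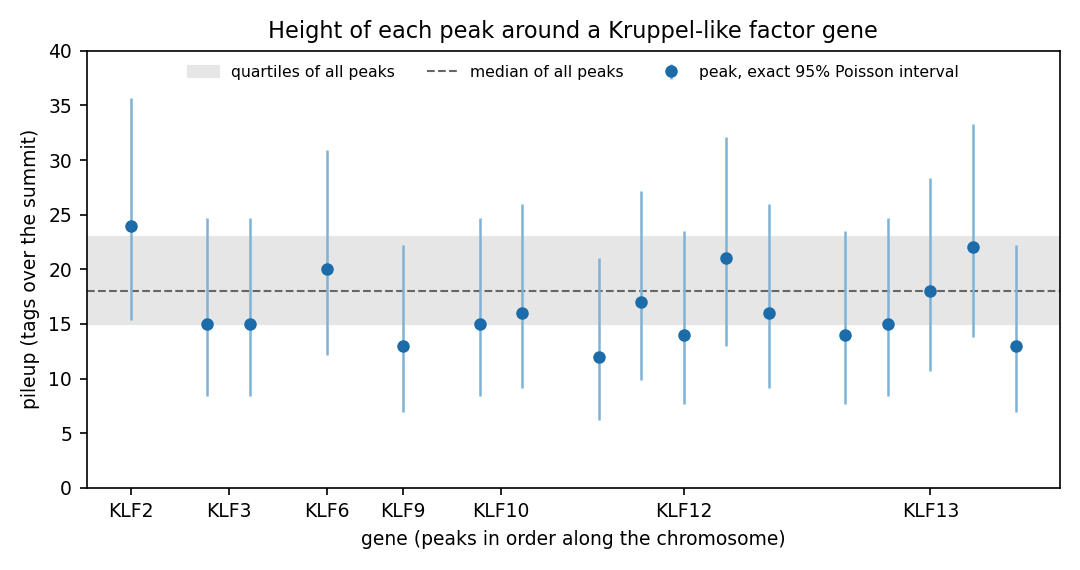
Pileup of each of the 17 peaks (y axis, tags over the summit) with its exact 95% Poisson interval, grouped by gene (x axis) in order along the chromosome. The dashed line is the median of all 13591 peaks (18 tags) and the grey band their quartiles (15 and 23); KLF2's peak of 24 tags is the only point above the band, and every interval crosses the dashed line.

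Width ran from 74 to 208 bp with a median of 110 bp, beside 153 bp for all peaks. Taller peaks are wider, so the width was also set beside the 10735 peaks of the list with 12 to 24 tags, whose median was 138 bp (quartiles 101 and 188). Narrower than that were 14 of the 17, and the 3 wider ones were at KLF2, KLF3 and KLF6. Exactly 74 bp, the smallest width allowed, was seen in 3 of the 17 (17.6%, Wilson interval 6.19 to 41%), 1 at KLF3 and 2 in KLF12. It was seen in 4.86% of the peaks of like height. The one at KLF3 and 1 of those in KLF12 had another peak within 1 kb, so narrow width and close pairing partly concern the same peaks. The median fold enrichment was 4.68, beside 5.06 for the list. A fold enrichment of at least 5 was reached by 6 of the 17, or 35.3% (Wilson interval 17.3 to 58.7%), and by 50.6% of the list, a share within that interval. These were the peaks of KLF2 and KLF6, 3 in KLF12 and 1 in KLF13.

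**Figure D5:**
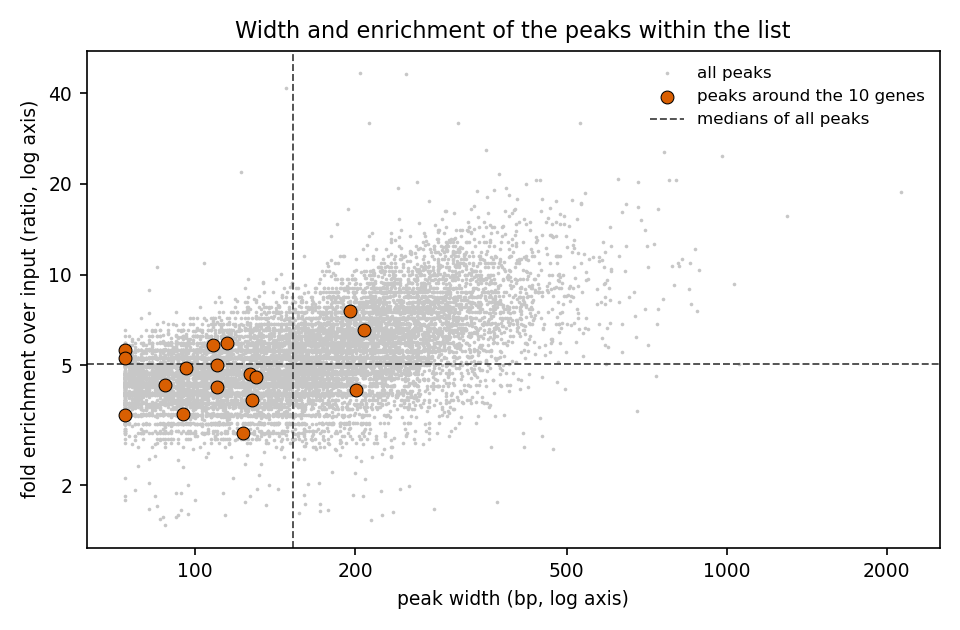
Peak width (x axis, bp, log axis) against fold enrichment over input (y axis, ratio, log axis) for all 13591 peaks (grey) and the 17 around the KLF genes (orange). Dashed lines are the medians of all peaks, 153 bp and 5.06; 14 of the 17 lie left of the first and 11 below the second.

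A close pair of peaks stood beyond the higher end of KLF3 and inside each of KLF12 and KLF13, with summits 338, 175 and 479 bp apart. Thus 6 of the 17 peaks, or 35.3% (17.3 to 58.7%), had a neighbour within 1 kb. In the whole list 11.9% had one, and among peaks of 12 to 24 tags 11.4%, both below the interval. Peaks of a pair are not independent, which such an interval assumes. Close pairs were also found around the comparison genes. Of the 12 peaks within 50 kb of the other KLF and SP genes, 4 had such a neighbour, or 33.3% (13.8 to 60.9%), at KLF15 and KLF16, and so did 4 of the 11 around the cofactor genes, all at CTBP2. Counting each pair once left 14 of the 17 peaks.

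The input level was equal to the genome background of 2.20 tags at 6 of the 17 summits, or 35.3%, beside 39.3% of the list. No level in the list was lower, so the input itself may be lower at such summits. The level that 4 input tags give, 1.67 times background, was found at 3 of the 17 summits, 1 each at KLF3, KLF9 and KLF13. That is 17.6% (Wilson interval 6.19 to 41%), beside 11.2% of the list. A further 2, both in KLF12, stood at the level that 3 input tags give, or 11.8% (3.29 to 34.3%), beside 16.6% of the list. The part of these few input tags in the low fold enrichments of KLF3 and KLF9 was not tested.

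The same rule was applied to the rest of the KLF and SP family. Of 17 other genes, KLF1, KLF8, KLF11, KLF14 to KLF18 and SP1 to SP9, 8 had a peak within 50 kb, or 47.1% (Wilson interval 26.2 to 69.0%), again with the 52.1% of all genes inside the interval. KLF17 had 1 summit inside the gene (14 tags), the same peak that lies 24.6 kb from KLF18. SP7, the osteoblast factor osterix, had 1 at 1.32 kb (13 tags), and KLF11, which binds SIN3A like KLF10, had 1 at 3.09 kb (20 tags, 12.2 to 30.9). The median length of these genes was 24.1 kb, beside 26.3 kb for the 10 members.

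Among 6 genes for cofactors, 3 had a peak within 50 kb, beside the 52.1% of all protein-coding genes. CTBP2, the corepressor that KLF3 and KLF12 bind, had 8, of which 6 were inside its 178 kb, a length class in which 1.19% of genes held 5 or more. The tallest spanned 125064721 to 125065223 on chromosome 10, with 39 tags (27.7 to 53.3), a fold enrichment of 8.55 and an input level of 1.67 times background. That interval overlapped the one of KLF12's tallest peak, 13 to 32.1 tags, but overlap is not a test of a difference and none was made. CTBP1 had 2 peaks, at 10.3 and 34.2 kb, and SIN3A had 1, 0.938 kb from the gene, with 14 tags (7.65 to 23.5). CREBBP, EP300 and WWP1, the last a ubiquitin ligase that acts on KLF5, had 0.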

How the data were processed

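The authors called peaks with MACS 2.1.2 from the ChIP library against the input at a q limit of 0.05 (tags of 54 bp extended to 74 bp, at most 1 per position and strand). Bowtie2 and hg38 are named in the submitters' processing notes. The pileup they deposited is a signal, counting extended tags at the summit. Their fold enrichment, also deposited, is a ratio of pileup to local background with 1 added to both, and q was deposited as −log10. No read counts per gene were used. The columns hold 1 list for the ChIP library.

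The input level was recovered as (pileup + 1) / fold enrichment − 1 and divided by the genome background, 2.20 tags. It was taken as equal to a level when within 0.01 tags. No level in the list fell below the genome background, so input lower than that cannot be seen. Gene intervals, starts and promoter sequences are from RefSeq (GRCh38.p14). Values were computed with Python 3.11.15, pandas 2.3.3 and SciPy 1.17.1, and the assignment was tested on made-up positions. Intervals are exact 95% Poisson or 95% Wilson.

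No sequence at the peaks was used, so no motif was sought there. All 10 members are named; of other family and cofactor genes, those with a summit within 5 kb, other genes being named after their values were seen. Members and lists were chosen with earlier results of these data known. The grouping by cofactor, the 250 kb areas, the GC and GT boxes and the comparison with peaks of like height were chosen after seeing the data.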

Additional observations from a re-analysis of the deposited data

How the results depend on the processing

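The number of peaks around the 10 genes was 17, and 7 genes had one. With gene intervals alone, and also with 5 kb on either side, 10 peaks at 2 genes were left, and with 20 kb 12 peaks at 4 genes. With 100 kb there were 26 peaks at 8 genes. A fold enrichment of at least 5 left 6 peaks at 4 genes. These changes follow from the construction of each setting. A q limit of 0.01 left 15 peaks at 6 genes, without KLF9. Overlap of any base, the nearest protein-coding gene, merging within 1 kb and an input level under 1.5 times background gave 14 to 17 peaks at 6 or 7 genes. The share of all protein-coding genes with a peak was 18.7% with the gene alone, 24.8% with 5 kb, 35.6% with 20 kb, 68.2% with 100 kb, 50.9% at the q limit of 0.01 and 35.1% at the fold enrichment of at least 5. With TGTGGT alone, 13.1% of promoters held the RUNX letters. No paired analysis was possible because the ChIP and the input are single libraries. At 12 to 24 tags a peak, the counting intervals of the members' peaks overlapped, and differences in height between them were not tested.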
